A study of Mus musculus with 33 samples.

Results

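The genes described here are Sqle, Cyp51, Msmo1, Nsdhl, Dhcr7 and Ebp, 6 enzymes that carry squalene through the closed sterol rings to cholesterol. They were chosen by symbol: all 8 probe sets annotated to these 6 genes were taken, of 12488 probe sets and 8252 named genes on the array, and all 8 passed the detection filter and were tested. Nsdhl has 3 probe sets and each other gene has 1, and the 3 Nsdhl probe sets read 1 gene and are not independent measurements.

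Liver RNA of 33 adult male mice was hybridised to MG-U74Av2 oligonucleotide arrays, 1 array per mouse, to ask how rapamycin, an inhibitor of the kinase complex mTORC1, affects liver transcripts. After a 22 h fast, mice received an injection of rapamycin (10 mg/kg) or of its vehicle, saline with ethanol. They were killed 2 h later (0 h) or after 3, 6 or 12 h with food, with 3 mice in each of these 8 groups. Rapamycin and vehicle mice that had not been fasted were killed 24 h after the injection (n = 2 each), and 5 uninjected mice were killed after a 24 h fast. Strain and time of day are not given in the sources used here, so time with food, time since injection and time of day cannot be told apart. In whole liver, fewer cells of a type and less RNA per cell cannot be told apart either.

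Cholesterol is built from acetyl units by way of mevalonate, isoprenoids and squalene. Sqle, squalene epoxidase, adds the oxygen that lets the chain be closed into lanosterol and is a rate-limiting enzyme of the later pathway. Cyp51, a cytochrome P450, removes a first methyl group from lanosterol, Msmo1 oxidises the remaining methyl groups at another carbon of the ring and Nsdhl removes them by decarboxylation, Ebp shifts a double bond within the ring, and Dhcr7 makes the final reduction to cholesterol. Transcription of most genes of the pathway is driven by SREBP-2, a factor released from the endoplasmic reticulum when sterols are low. The fasted liver is known to make little cholesterol and the refed liver much more, and mTORC1 is known to favour SREBP activity.

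The deposited intensities are not on a log scale and can be negative, as average differences between matched and mismatched probes are, although the sources used here do not state the method. Log2 changes were taken with values raised to at least 6.31 and tested in 1 limma fit over all 33 arrays and 6568 probe sets, with a change called where the adjusted p was under 0.05. Where every array of the lower group lay at or below 30, the floor the authors used, the fitted change depends on the floor. A bound against 30 is then given as "at least".

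The arrays form 2 sets that differ in how many values are 0 or negative. This share was 35.05% to 40.8% in 16 arrays of set 1 and 24.2% to 28.2% in 17 arrays of set 2. All arrays of nonfasted rapamycin mice, vehicle mice at 0 h and 6 h and uninjected fasted mice belong to set 1. All arrays of rapamycin mice at 0 h and 12 h, vehicle mice at 3 h and 12 h and nonfasted vehicle mice belong to set 2. Rapamycin mice at 3 h hold 1 array of set 1 and 2 of set 2, and those at 6 h hold 2 and 1. Hepatocyte markers were detected for 6 of 6 genes on the array, with summed group medians of 17198 to 26679, with the lowest in rapamycin mice at 12 h and the highest in rapamycin mice at 0 h. Cholangiocyte markers lay at or near 0.

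In vehicle mice the sterol genes were higher after refeeding than at 0 h, but not all were called at 3 h. After 3 h with food 4 of 6 genes were higher than at 0 h (Sqle, Cyp51, Msmo1 and Dhcr7), against 19.9% of all probe sets that were called higher. After 6 h all 6 were higher, against 14.2% of all probe sets, and after 12 h all 6 again, against 26%. The median log2 change of the 6 genes was 2.56 at 3 h, 4.73 at 6 h and 5.39 at 12 h, beside 0.27, 0.02 and 0.24 over all probe sets. For 3 of the 6 genes (Sqle, Cyp51 and Dhcr7) every 0 h array lay under 30, and with these set at their bounds the medians were 1.28, 3.50 and 4.39.

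Sqle (94322_at) had intensities of 5, 20 and 24 in vehicle mice at 0 h, 133, 169 and 244 at 3 h, 365, 649 and 898 at 6 h, and 621, 660 and 750 at 12 h. Each refed group lay wholly above the 0 h group, and the 6 h group spread widely enough to hold the whole 12 h range. The log2 change against 0 h was 3.61 ± 0.40 (SE) at 3 h (adjusted p = 1.44e-06), 5.37 ± 0.40 at 6 h (adjusted p = 4.60e-09) and 5.54 ± 0.40 at 12 h (adjusted p = 4.44e-10). Since every 0 h array lay under 30, these fitted sizes depend on the floor, and Sqle was at least 5.88-fold higher at 3 h, 19.9-fold at 6 h and 22.5-fold at 12 h.

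Msmo1 (160388_at) had 3, 15 and 51 in vehicle mice at 0 h, 111, 266 and 351 at 3 h, 589, 885 and 933 at 6 h, and 832, 946 and 959 at 12 h. No refed array came down to the 0 h arrays. At 0 h 2 of the 3 arrays lay under 30, so fitted sizes against this group depend in part on the floor. The log2 change was 3.69 ± 0.52 at 3 h (adjusted p = 3.42e-05), 5.54 ± 0.52 at 6 h and 5.75 ± 0.52 at 12 h (adjusted p = 4.90e-08 and 1.68e-08).

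Cyp51 (94916_at) had -30, -14 and 22 in vehicle mice at 0 h, 42, 95 and 148 at 3 h, 257, 507 and 575 at 6 h, and 663, 678 and 739 at 12 h. The 4 groups did not overlap, so the transcript climbed at each step from a level that was not measurable at 0 h. It was at least 2.80-fold higher at 3 h (adjusted p = 3.27e-04), at least 14.1-fold higher at 6 h and at least 23.1-fold higher at 12 h.

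Dhcr7 (98989_at), the last enzyme, had -7, -6 and -3 in vehicle mice at 0 h and 14, 31 and 36 at 3 h, then 59, 137 and 155 at 6 h and 217, 240 and 260 at 12 h. The 3 h arrays lay above the 0 h arrays but around 30, so the call at 3 h (log2 change 1.99 ± 0.33, adjusted p = 1.94e-04) rests on values near the floor, and with a floor of 30 it was lost (0.10, adjusted p = 0.963), the bound being 1.07-fold. The later rises were at least 3.59-fold at 6 h and at least 7.95-fold at 12 h.

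Nsdhl was read by 3 probe sets, of which 98631_g_at was the brightest. It had 18, 33 and 83 in vehicle mice at 0 h, 52, 87 and 104 at 3 h, 171, 454 and 473 at 6 h, and 669, 721 and 760 at 12 h. The 3 h arrays overlapped the 0 h arrays and the change of 1.08 ± 0.45 missed the threshold (adjusted p = 0.0825), while 3.18 ± 0.45 at 6 h and 4.29 ± 0.45 at 12 h passed (adjusted p = 1.25e-05 and 1.15e-07). The other probe sets of Nsdhl gave 1.45 ± 0.46 (93868_at, adjusted p = 0.0248) and 2.34 ± 0.38 (98630_at, adjusted p = 1.68e-04) at 3 h, so that with either of them 5 of 6 genes were called. Their 3 h arrays lay at 24, 38 and 44 and at 18, 36 and 50, close to the level of 30, and 98630_at lay under 30 on every 0 h array, which bounds its rise at 3 h at 1.26-fold or more.

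Ebp (96627_at) differed from the other genes in being well detected in fasted liver. It had 186, 210 and 244 in vehicle mice at 0 h, 218, 230 and 285 at 3 h, 263, 276 and 350 at 6 h, and 410, 419 and 471 at 12 h. The 3 h arrays overlapped the 0 h arrays (log2 change 0.19 ± 0.15, adjusted p = 0.370), the 6 h arrays were just above them (0.47 ± 0.15, adjusted p = 0.0253), and the 12 h arrays were 2.04-fold higher (1.03 ± 0.15, adjusted p = 9.70e-06). The call at 6 h was lost without vehicle 0 h replicate 1 or vehicle 6 h replicate 2 (adjusted p = 0.123 and 0.151), with quantile normalisation (0.0940) and with every array scaled to 1 trimmed mean (0.0957), which leaves 5 of 6 genes called at 6 h.

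**Figure D1:**
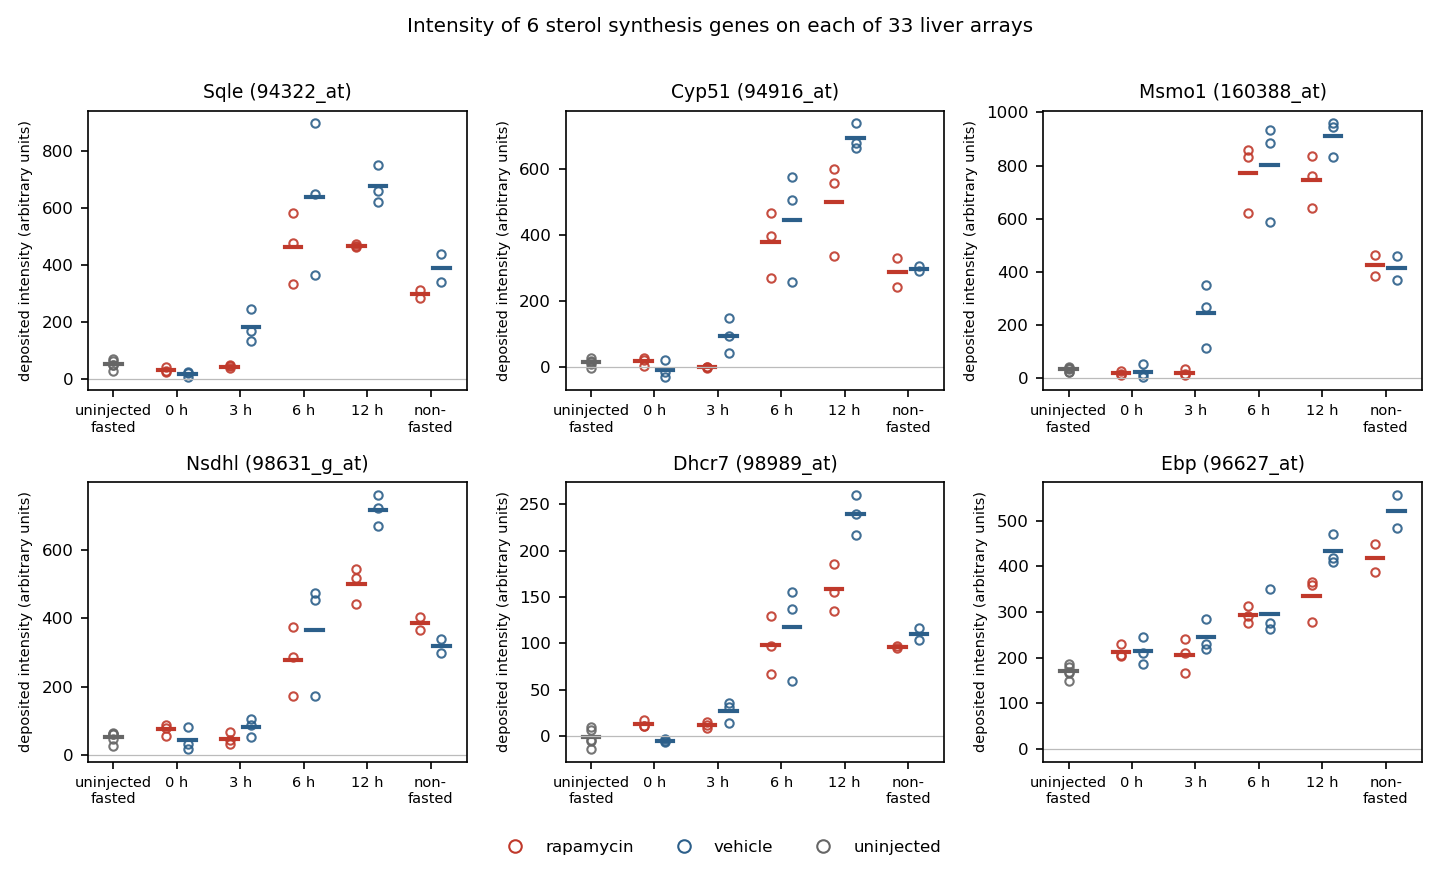
Deposited intensity (arbitrary units) of each gene on every array; circles are single mice, bars are group means, red is rapamycin, blue is vehicle and grey is uninjected fasted mice, with time with food along the axis. At 3 h the rapamycin arrays of Msmo1 lay between 11 and 33, below the vehicle arrays at 111 to 351.

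Vehicle arrays at 0 h belong to set 1 and those at 3 h and 12 h to set 2. Food and set thus cannot be told apart in these arrays. Only the rapamycin groups at 3 h and 6 h hold arrays of both sets. A set effect in the fit is therefore estimated from those groups alone and is assumed to hold in vehicle mice, which was not tested. When the array set was added to the fit, the same 4 genes were called at 3 h (log2 changes of 3.96 for Sqle, 3.47 for Cyp51, 3.38 for Msmo1 and 1.98 for Dhcr7, adjusted p = 3.95e-04, 0.0210, 0.0177 and 0.0315) while the share of all probe sets called higher dropped to 1.8%. At 12 h all 6 genes were called with the term, against 9.62% of all probe sets. The comparison at 6 h lies wholly within set 1. With every array scaled to 1 trimmed mean the median of all probe sets at 3 h was 0.01 instead of 0.27, and the share called higher was 11.2%, with 8.88% lower. The same 4 genes were called, and Ebp, not called either way, had a change of -0.09 in place of 0.19.

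Between 3 h and 12 h all 6 genes kept rising in vehicle mice, in a comparison that lies within set 2, against 5.8% of all probe sets called higher. Dhcr7 rose most, by 3.25 ± 0.33 on the log2 scale (adjusted p = 7.91e-07), then Nsdhl by 3.20 ± 0.45 and Cyp51 by 3.05 ± 0.55 (adjusted p = 6.04e-05 and 9.24e-04). Msmo1 and Sqle rose by 2.06 ± 0.52 and 1.94 ± 0.40 (adjusted p = 0.0120 and 0.00262), and Ebp by 0.83 ± 0.15 (adjusted p = 8.40e-04). Without vehicle 3 h replicate 1 the rise of Msmo1 was 1.58 and did not pass (adjusted p = 0.0790).

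The pace can be read as a share of each gene's own mean in vehicle mice at 12 h. At 3 h vehicle mice had reached 26.9% for Sqle and 26.6% for Msmo1, but 13.7% for Cyp51 and 11.3% for both Nsdhl and Dhcr7. At 6 h they had reached 94.1% for Sqle and 87.9% for Msmo1, 64.4% for Cyp51, 51.1% for Nsdhl and 49.0% for Dhcr7. Ebp moved over a narrower range, at 49.2% at 0 h, 56.4% at 3 h and 68.4% at 6 h. These shares are ratios of means of 3 arrays and the differences between genes were not tested.

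**Figure D2:**
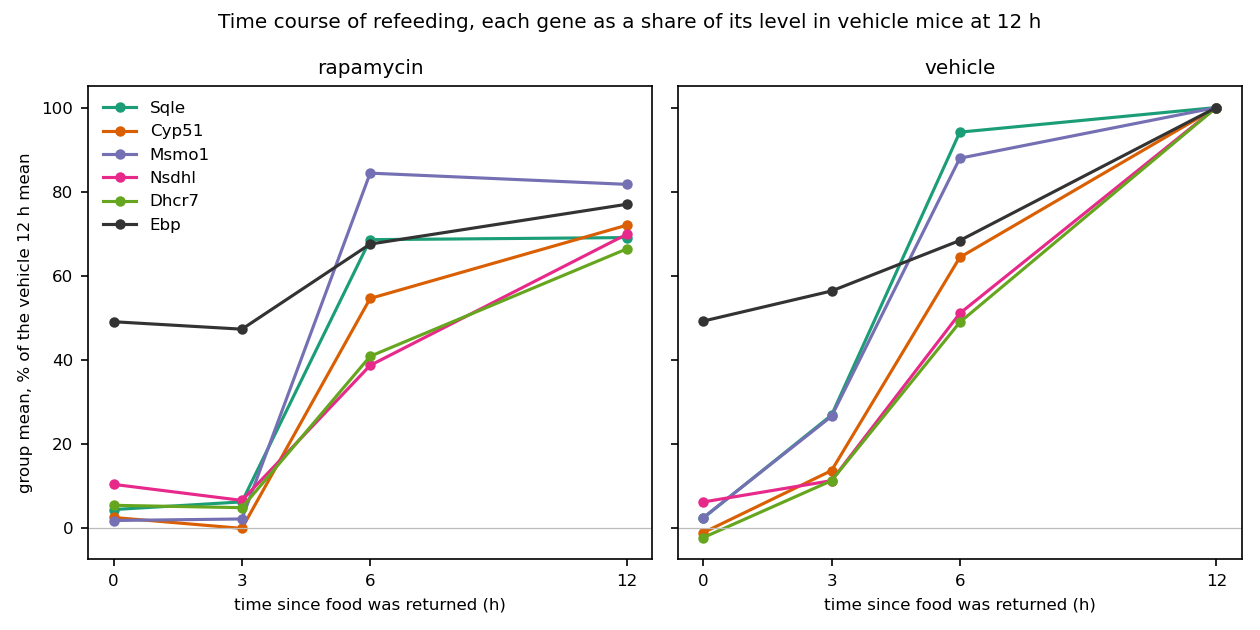
Group mean of each gene as a percent of its mean in vehicle mice at 12 h, against time with food (h); rapamycin is on the left and vehicle on the right, and lines join group means of 3 arrays. In rapamycin mice at 3 h the 5 genes other than Ebp lay between -0.05% and 6.60%, and in vehicle mice between 11.3% and 26.9%.

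In rapamycin mice the early part of this response was not detected. At 3 h 0 of 6 genes were called higher than in rapamycin mice at 0 h, against 1.58% of all probe sets, with unadjusted p of 0.193 for Sqle, 0.0253 for Cyp51, 0.670 for Msmo1, 0.135 for Nsdhl, 0.612 for Dhcr7 and 0.650 for Ebp. The only one of these under 0.05 was that of Cyp51, with -1, 0 and 0 at 3 h, against 3, 23 and 27 at 0 h, all of them under 30. By 98630_at the unadjusted p of Nsdhl was 0.0373, with a log2 change of 0.85. The median log2 change of the 6 genes was -0.12, beside 0.00 over all probe sets. By 6 h all 6 genes were higher than at 0 h, against 10.7% of all probe sets, and by 12 h all 6 again, against 14.6%. Rapamycin arrays at 3 h and 6 h mix the sets. With the set as a term 0 of 6 genes were called at 3 h and 6 of 6 at 6 h, against 1.29% and 6.76% of all probe sets, and within set 2, with 1 array at 6 h, 4 of 6 were called at 6 h, against 5.69%. Those that did not pass within set 2 were Nsdhl (1.22, adjusted p = 0.06) and Ebp (0.56, adjusted p = 0.103). The call of Ebp at 6 h (0.46 ± 0.15, adjusted p = 0.0299) was also lost with quantile normalisation (0.0696) and without any 1 of replicates 2 and 3 at 0 h or at 6 h (adjusted p between 0.0747 and 0.0888).

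At 3 h with food 3 of 6 genes were lower in rapamycin than in vehicle mice (Sqle, Cyp51 and Msmo1), against 0.289% of all probe sets that were called lower. Msmo1 had 11, 16 and 33 in rapamycin mice, against 111, 266 and 351 in vehicle mice. No rapamycin array came near the vehicle range, and the log2 difference was -3.60 ± 0.52 (adjusted p = 6.49e-04). Of these rapamycin arrays 2 lay under 30, so fitted sizes against this group depend in part on the floor. Cyp51 had -1, 0 and 0 in rapamycin mice, against 42, 95 and 148 in vehicle mice. Every rapamycin array was thus at background, which makes the difference a bound of at least 2.80-fold lower (fitted -3.73 ± 0.55, adjusted p = 7.54e-04). Sqle had 38, 43 and 46 in rapamycin mice, against 133, 169 and 244 in vehicle mice, again with no overlap and with a log2 difference of -2.06 ± 0.40 (adjusted p = 0.0136).

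The remaining genes pointed down without passing. Dhcr7 had 8, 12 and 15 in rapamycin mice, against 14, 31 and 36 in vehicle mice, and the ranges overlapped (log2 difference -1.15 ± 0.33, adjusted p = 0.233). Nsdhl had 33, 43 and 66 by 98631_g_at in rapamycin mice, against 52, 87 and 104 in vehicle mice (-0.78 ± 0.45, adjusted p = 0.744). By the other probe sets Nsdhl differed by -1.08 ± 0.46 (93868_at, adjusted p = 0.584) and -0.72 ± 0.38 (98630_at, adjusted p = 0.724). Ebp had 165, 209 and 241 in rapamycin mice, against 218, 230 and 285 in vehicle mice (-0.26 ± 0.15, adjusted p = 0.741). For Dhcr7 and for Nsdhl by 93868_at and 98630_at every rapamycin array lay under 30, so these fitted differences depend on the floor.

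The 3 calls rest on few mice. Within set 2, which leaves 2 rapamycin arrays against 3 vehicle arrays, the differences were -3.25 for Msmo1, -3.73 for Cyp51 and -2.08 for Sqle (adjusted p = 0.0298, 0.0384 and 0.0125). Sqle missed the threshold without vehicle 3 h replicate 2 or 3 or rapamycin 3 h replicate 1 or 3 (adjusted p = 0.0973, 0.131, 0.0740 and 0.0667), with differences of -2.09, -1.83, -1.99 and -2.08. Fitted to these 6 arrays alone 0 genes passed (adjusted p = 0.355 for Msmo1, 0.220 for Cyp51 and 0.210 for Sqle), with the same differences. With the set as a term the same count of 3 passed, against 0.198% of all probe sets called lower. Erythroid markers (Hba-a1 and Alas2, 2 of 5 genes on the array, both detected) summed to 1690 to 1996 in rapamycin mice at 3 h, against 1046 to 1390 in vehicle mice, and their part in the result was not tested.

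**Figure D3:**
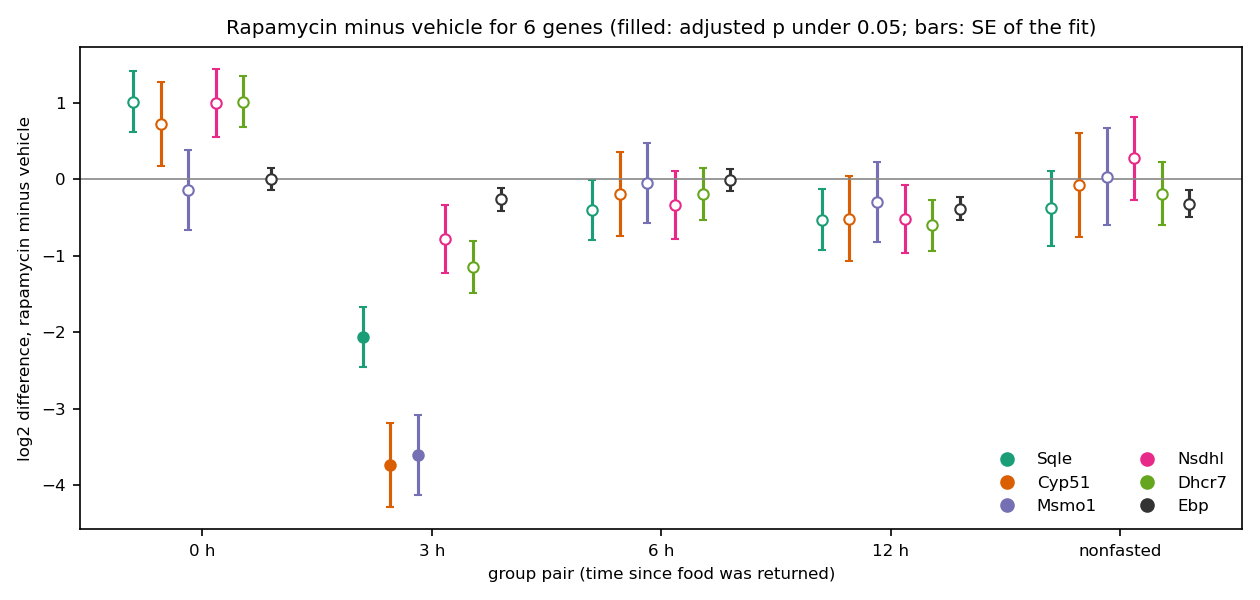
Log2 difference, rapamycin minus vehicle, of each gene at 0, 3, 6 and 12 h with food and in nonfasted mice; points are fitted values, bars are the SE of the fit and filled points passed an adjusted p of 0.05. Filled points are those of Sqle, Cyp51 and Msmo1 at 3 h, at -2.06, -3.73 and -3.60.

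At 6 h with food the drug groups were not separated for any of the 6 genes, and 0 were called, against 0.0152% of all probe sets called in either direction. Msmo1 had 622, 831 and 857 in rapamycin mice, against 589, 885 and 933 in vehicle mice, a difference of -0.04 ± 0.52. Sqle had 333, 478 and 582 in rapamycin mice, against 365, 649 and 898 in vehicle mice (-0.40 ± 0.40). For all 6 genes the ranges overlapped and the unadjusted p lay between 0.323 for Sqle and 0.956 for Ebp. This does not show that the groups were alike, since the SE was 0.33 to 0.55 for the 5 genes other than Ebp.

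At 12 h each of the 6 genes had a lower mean in rapamycin mice, but 0 were called, against 0.198% of all probe sets called lower. Sqle had 462, 466 and 475 in rapamycin mice, against 621, 660 and 750 in vehicle mice (-0.53 ± 0.40, unadjusted p = 0.194). Nsdhl had 441, 516 and 545 in rapamycin mice, against 669, 721 and 760 in vehicle mice (-0.52 ± 0.45, unadjusted p = 0.253). Dhcr7 had 135, 155 and 186 in rapamycin mice, against 217, 240 and 260 in vehicle mice (-0.60 ± 0.33, unadjusted p = 0.0850). In these genes, as in Cyp51 and Ebp, the groups did not overlap, although none passed the fit. How many of all probe sets separate in this way was not counted, so no weight is placed on it.

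Cyp51 at 12 h had 338, 559 and 601 in rapamycin mice, against 663, 678 and 739 in vehicle mice (-0.52 ± 0.55, unadjusted p = 0.360). Ebp had 278, 358 and 365 in rapamycin mice, against 410, 419 and 471 in vehicle mice (-0.39 ± 0.15, unadjusted p = 0.0159), the 1 gene of 6 with an unadjusted p under 0.05. Msmo1 had 639, 761 and 837 in rapamycin mice, against 832, 946 and 959 in vehicle mice, which overlap by a few units (-0.30 ± 0.52, unadjusted p = 0.574). All of these arrays belong to set 2. The erythroid markers summed to 1100 to 1272 in rapamycin mice at 12 h, against 683 to 811 in vehicle mice, and their part in these differences was not tested. As shares of the vehicle mean at 12 h, rapamycin mice stood at 66.4% for Dhcr7, 69.1% for Sqle, 69.9% for Nsdhl, 72.0% for Cyp51, 77% for Ebp and 81.7% for Msmo1.

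From 3 h to 12 h all 6 genes rose in rapamycin mice, against 6.94% of all probe sets called higher. Msmo1 rose by 5.37 ± 0.52, Sqle by 3.47 ± 0.40 and Nsdhl by 3.46 ± 0.45 (adjusted p = 2.42e-07, 2.19e-06 and 1.06e-05). Cyp51 was at least 16.1-fold and Dhcr7 at least 5.24-fold higher at 12 h (adjusted p = 5.77e-08 each), and Ebp rose by 0.71 ± 0.15 (adjusted p = 0.00267). All 6 were also called with the set as a term and within set 2, against 5.68% and 6.07% of all probe sets.

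Averaged over 3, 6 and 12 h the drug difference passed for 3 of 6 genes, Cyp51 at -1.48 ± 0.32, Msmo1 at -1.31 ± 0.30 and Sqle at -1.0 ± 0.23 (adjusted p = 0.0152, 0.0233 and 0.0233), against 1.05% of all probe sets called lower. With the set as a term 3 of 6 passed, against 1.26%. Leaving out 1 array moved this count between 1 and 4, with 1 left without vehicle 3 h replicate 3. Sqle did not pass without vehicle 3 h replicate 3, vehicle 6 h replicate 1 or vehicle 12 h replicate 2 (adjusted p = 0.0607, 0.0579 and 0.0525). Msmo1 did not pass without vehicle 3 h replicate 2, vehicle 3 h replicate 3 or rapamycin 3 h replicate 3 (adjusted p = 0.0542, 0.0607 and 0.0593). Dhcr7 passed without vehicle 3 h replicate 1 or vehicle 6 h replicate 3 (adjusted p = 0.0204 and 0.0217).

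Before food was returned 0 of 6 genes were called between the drug groups, against 4.78% of all probe sets called higher. Sqle had 24, 26 and 40 in rapamycin mice, against 5, 20 and 24 in vehicle mice (log2 difference 1.01 ± 0.40, adjusted p = 0.137). Dhcr7 had 11, 11 and 17 in rapamycin mice, against -7, -6 and -3 in vehicle mice, without overlap but all under 30 (1.01 ± 0.33, adjusted p = 0.0747). The unadjusted p was under 0.05 for Sqle, Nsdhl and Dhcr7 (0.0172, 0.0348 and 0.00583). All rapamycin arrays at 0 h belong to set 2 and all vehicle arrays to set 1, so drug and set cannot be told apart here, and with the set as a term 0.0305% of all probe sets were called higher.

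Without vehicle 0 h replicate 3, Sqle and Nsdhl were called higher in rapamycin mice at 0 h (1.38 and 1.59, adjusted p = 0.0327 and 0.0183). That array held the highest value of the vehicle 0 h group for 5 of 6 genes, such as 51 for Msmo1 beside 3 and 15 on the others, and for 47.9% of all probe sets. The erythroid markers summed to 818 to 1121 in rapamycin mice at 0 h, against 1064 to 3000 in vehicle mice, and their part was not tested.

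The response to food was set against the drug directly. The test over 3, 6 and 12 h of whether the drug difference departed from that at 0 h passed for 3 of 6 genes (Cyp51, Msmo1 and Sqle, adjusted p = 0.0144, 0.0243 and 0.0288), against 1.31% of all probe sets, with Dhcr7 at 0.0611. Without vehicle 3 h replicate 2 or replicate 3 this count was 0. Adding the array set to the fit also left 0, against 0.0914% of all probe sets. At 3 h alone 4 of 6 genes passed, each lower in rapamycin mice, against 4.48% of all probe sets called lower. The log2 response in rapamycin mice minus that in vehicle mice was -4.45 ± 0.78 for Cyp51, -3.46 ± 0.74 for Msmo1, -3.08 ± 0.56 for Sqle and -2.16 ± 0.47 for Dhcr7 (adjusted p = 0.00306, 0.00901, 0.00421 and 0.0107).

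This difference of responses takes in the 0 h groups, where drug and array set cannot be told apart. When the array set was added to the fit, the sizes were -4.90, -3.05, -3.55 and -2.15 in the same order, but the SEs grew to 1.12, 1.06, 0.80 and 0.68, and 0 of 6 genes passed (adjusted p = 0.149, 0.640, 0.136 and 0.612). With a floor of 30 Sqle and Msmo1 passed (-2.20 and -2.56, adjusted p = 0.00575 and 0.00323), and Cyp51 and Dhcr7 did not (-1.48 and -0.10, adjusted p = 0.0949 and 1.0).

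In mice that were not fasted, the 5 genes other than Ebp had means between those at 0 h and those of vehicle mice at 12 h, whichever injection was given. Vehicle nonfasted mice had 341 and 439 for Sqle, 291 and 306 for Cyp51, 370 and 459 for Msmo1, 299 and 338 for Nsdhl, 103 and 116 for Dhcr7, and 484 and 556 for Ebp. Against the vehicle mice at 0 h all 6 were higher, against 19.1% of all probe sets. These groups lie in different array sets, so feeding and set cannot be told apart. When a set effect, estimated from rapamycin mice at 3 h and 6 h, was added, all 6 were called too, against 8.16%. Sqle was at least 12.9-fold, Cyp51 at least 9.95-fold and Dhcr7 at least 3.64-fold higher, while Msmo1 rose by 4.61 ± 0.58, Nsdhl by 3.12 ± 0.50 and Ebp by 1.29 ± 0.17 on the log2 scale (adjusted p = 2.79e-06, 5.21e-05 and 3.48e-06).

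Rapamycin nonfasted mice had 282 and 313 for Sqle, against 341 and 439 in vehicle nonfasted mice, and 387 and 448 for Ebp, against 484 and 556. These pairs did not overlap, but the differences of -0.38 ± 0.49 and -0.32 ± 0.18 did not pass (adjusted p = 0.850 and 0.504). Dhcr7 did not overlap either, at 95 and 97 against 103 and 116. Nsdhl by 98631_g_at separated the other way, with 366 and 404 in rapamycin nonfasted mice, against 299 and 338 in vehicle nonfasted mice. Msmo1 had 385 and 463, against 370 and 459. How many of all probe sets separate in this way was not counted, so no weight is placed on it. In all 0 of 6 genes were called, against 0.929% of all probe sets called lower, and none had an unadjusted p under 0.05 (lowest 0.0940, Ebp). Each group lies in its own array set, so drug and set cannot be told apart in this pair, and with the set as a term 0 of 6 were called, against 0.0305% of all probe sets called lower. Kupffer cell markers (9 of 10 on the array detected) summed to 1636 and 1692 in rapamycin nonfasted mice and 1374 and 1825 in vehicle nonfasted mice, against 778 to 1343 in the injected fasted and refed groups and 950 to 2044 in uninjected fasted mice, and their part in these results was not tested.

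Fed and fasted liver can also be compared within set 1, though in mice that differ in treatment as well. In rapamycin nonfasted mice all 6 genes were higher than in uninjected fasted mice, against 12.8% of all probe sets. The first group had an injection and rapamycin and the second had neither, so feeding, drug and injection cannot be told apart here. Sqle had 282 and 313, against 25, 47, 48.9, 61 and 68, a log2 difference of 2.65 ± 0.41 (adjusted p = 3.42e-05). Ebp had 387 and 448, against 149 to 185.2, a difference of 1.30 ± 0.15 (adjusted p = 1.07e-06).

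Vehicle mice refed for 6 h, also of set 1, had all 6 genes above the uninjected fasted mice, against 18% of all probe sets. Food and injection cannot be told apart in this pair. Cyp51 was at least 14.1-fold and Dhcr7 at least 3.59-fold higher, Msmo1 was higher by 4.64 ± 0.47, Sqle by 3.66 ± 0.35, Nsdhl by 2.73 ± 0.40 and Ebp by 0.80 ± 0.13 (adjusted p = 1.10e-07, 7.62e-08, 1.66e-05 and 8.26e-05).

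Sqle differed between vehicle mice at 0 h and uninjected fasted mice in the fit over all arrays, a call that several alternatives lost. Its values of 5, 20 and 24 in vehicle mice at 0 h lay below all 5 uninjected fasted mice (25, 47, 48.9, 61 and 68), at least 1.64-fold lower (fitted log2 difference -1.71 ± 0.35, adjusted p = 0.0102). It was the 1 gene of 6 called, against 2.94% of all probe sets called lower. The call was lost with a floor of 30 (-0.71, adjusted p = 0.107) and without vehicle 0 h replicate 1 (-1.11, adjusted p = 0.0781). It was also lost with the replicate number as a block (-1.41, adjusted p = 0.0708), within set 1 alone (adjusted p = 0.0972) and in a fit of these 8 arrays (adjusted p = 0.243). Without vehicle 0 h replicate 3, Msmo1 was called as well (-1.69, adjusted p = 0.00875).

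Vehicle mice refed for 12 h had higher values than nonfasted vehicle mice in 5 of 6 genes, without passing the test. Vehicle mice at 12 h had 832, 946 and 959 for Msmo1, against 370 and 459 in nonfasted mice, and 217, 240 and 260 for Dhcr7, against 103 and 116. The ranges did not overlap for any of the 6 genes, but the share of all probe sets that separate between 3 and 2 arrays was not counted. The log2 differences were 1.21 ± 0.62 for Cyp51, 1.17 ± 0.50 for Nsdhl, 1.14 ± 0.58 for Msmo1, 1.12 ± 0.37 for Dhcr7, 0.80 ± 0.44 for Sqle and -0.26 ± 0.17 for Ebp. None passed (adjusted p = 0.0766 for Dhcr7 and 0.184 or more for the others), against 4.07% of all probe sets called higher. The unadjusted p was under 0.05 for Nsdhl and Dhcr7 (0.0272 and 0.00601). Of the 6 genes Ebp alone had its highest mean in nonfasted vehicle mice, at 520.0 ± 50.9 (SD, n = 2), against 433 ± 32.9 (SD, n = 3) in vehicle mice at 12 h.

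The order of the groups can be stated for each gene by its mean. For Sqle, Cyp51, Msmo1, Nsdhl and Dhcr7 vehicle mice at 12 h were highest, and the uninjected fasted mice and the groups at 0 h were at the bottom together with rapamycin mice at 3 h. Sqle in rapamycin mice had 24, 26 and 40 at 0 h and 38, 43 and 46 at 3 h, beside 25 to 68 in uninjected fasted mice, and these neighbours overlap. Likewise the means of Msmo1 in rapamycin mice at 12 h and 6 h, 746 ± 99.9 and 770.0 ± 129, and in vehicle mice at 6 h, 802 ± 186 (SD, n = 3 each), do not differ beyond their spread. The nonfasted groups lay between the 3 h and 6 h groups in Sqle, Cyp51 and Msmo1.

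In several groups, but not in all, the arrays ranked alike across the genes. In vehicle mice at 3 h replicate 1 was the lowest and replicate 3 the highest for 6 of 6 genes, where replicate 1 was lowest for 45.5% and replicate 3 highest for 28.7% of all probe sets. The same 2 arrays were the lowest and the highest for 6 of 6 measured mevalonate genes. In vehicle mice at 6 h replicate 3 was the lowest for 6 of 6 genes (27.8% of all probe sets), at 365 for Sqle beside 649 and 898 on the others, and for 5 of 6 mevalonate genes. In rapamycin mice at 6 h replicate 3 was the lowest for 5 of 6 genes and 6 of 6 mevalonate genes (21.9% of all probe sets). That array is the 1 array of set 2 in its group, so its rank and its set cannot be told apart. In rapamycin mice at 0 h the lowest array was replicate 1 for 2 genes, replicate 2 for 1 and replicate 3 for 3, so the order there was mixed.

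The promoters of 5 of 6 genes were matched by symbol in the RefSeq promoter windows of GRCm38.p6, which run from 250 bases before to 50 bases after an annotated start. Sqle was not matched. They were read because the genes moved together, with Ebp shown as the gene that moved least. Of the 3 windows of Dhcr7 the one with the most matches is shown. The windows are Cyp51 at chr5:4104648-4104947 (minus strand), Msmo1 at chr8:64733529-64733828 (minus strand), Nsdhl at chrX:72918271-72918570 (plus strand), Dhcr7 at chr7:143829964-143830263 (plus strand, the third of 3 windows of this gene) and Ebp at chrX:8193463-8193762 (minus strand). Sequences run 5′ to 3′ on the gene's strand, and capitals mark matches on either strand to TCACNNCA (a loose form of the sterol regulatory element bound by SREBP), CCAAT (the box bound by NF-Y), GGGCGG (the GC box bound by Sp1) or CACGTG (an E-box).
Cyp51: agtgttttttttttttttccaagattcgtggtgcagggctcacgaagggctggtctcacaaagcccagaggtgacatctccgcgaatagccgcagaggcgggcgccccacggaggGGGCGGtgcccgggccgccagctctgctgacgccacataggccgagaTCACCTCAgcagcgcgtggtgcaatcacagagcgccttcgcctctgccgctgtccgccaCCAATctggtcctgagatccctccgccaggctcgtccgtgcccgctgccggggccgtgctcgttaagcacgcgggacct
Msmo1: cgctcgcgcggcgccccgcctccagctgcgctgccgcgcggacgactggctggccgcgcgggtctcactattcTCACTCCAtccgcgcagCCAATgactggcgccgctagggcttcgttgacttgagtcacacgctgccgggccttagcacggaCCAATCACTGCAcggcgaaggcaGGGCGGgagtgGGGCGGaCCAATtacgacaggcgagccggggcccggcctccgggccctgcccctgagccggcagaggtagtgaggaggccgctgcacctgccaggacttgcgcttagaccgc
Nsdhl: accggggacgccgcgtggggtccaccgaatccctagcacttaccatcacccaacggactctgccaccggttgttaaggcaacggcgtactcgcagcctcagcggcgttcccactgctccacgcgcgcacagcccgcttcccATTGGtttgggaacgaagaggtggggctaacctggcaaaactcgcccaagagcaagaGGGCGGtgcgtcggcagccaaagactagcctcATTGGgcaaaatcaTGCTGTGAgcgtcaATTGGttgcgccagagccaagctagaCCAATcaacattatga
Dhcr7: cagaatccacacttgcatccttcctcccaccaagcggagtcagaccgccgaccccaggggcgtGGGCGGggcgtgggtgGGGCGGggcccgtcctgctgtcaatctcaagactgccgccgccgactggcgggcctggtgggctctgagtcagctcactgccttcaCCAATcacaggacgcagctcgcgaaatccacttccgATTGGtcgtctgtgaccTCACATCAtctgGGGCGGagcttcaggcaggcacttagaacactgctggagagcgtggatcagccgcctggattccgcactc
Ebp: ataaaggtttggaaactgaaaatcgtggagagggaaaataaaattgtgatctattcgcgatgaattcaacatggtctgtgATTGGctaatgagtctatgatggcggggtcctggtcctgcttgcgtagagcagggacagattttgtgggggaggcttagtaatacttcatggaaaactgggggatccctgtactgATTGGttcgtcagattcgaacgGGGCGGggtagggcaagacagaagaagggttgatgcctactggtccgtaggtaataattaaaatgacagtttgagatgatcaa

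The stricter element TCACNCCAC was in none of these windows, and in 1.24% of 32851 windows in the whole table. The looser TCACNNCA was in 13.8% of all windows and here in Cyp51 as TCACCTCA, beginning 88 bases before the start, and at 2 places in Msmo1, as TCACTCCA and TCACTGCA at 177 and 92 bases before it. The second match of Msmo1 shares its first base with the last base of a CCAAT. Dhcr7 holds TCACATCA 32 bases before the start, and Nsdhl holds TGCTGTGA, the match on the other strand, 6 bases before it. The window of Ebp holds none. CCAAT was in 37.4% of all windows and in all 5 shown, with 4 matches in Nsdhl and 3 in Msmo1. GGGCGG, in 35.7% of all windows, was in all 5 as well. For Dhcr7 this rests on the window shown, since its windows 1 and 2 hold no CCAAT, window 2 no GGGCGG and window 1 no sterol element. CACGTG, in 7.15% of all windows, was in none of the 5 shown and in the second window of Dhcr7. These are matches of letters, and no binding was measured.

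**Figure D4:**
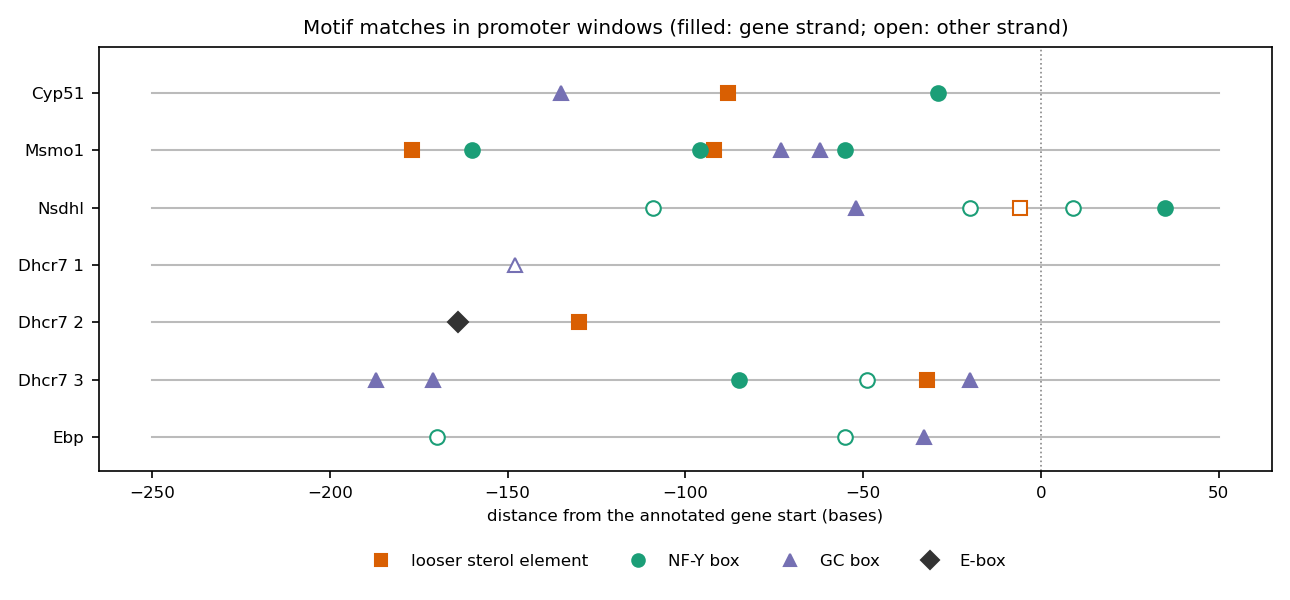
Motif matches in 7 promoter windows of 5 genes, by distance from the annotated gene start (bases); filled marks are on the gene's strand and open marks on the other, and Dhcr7 has 3 windows. The looser sterol element is marked in Cyp51, Msmo1, Nsdhl and windows 2 and 3 of Dhcr7, and is not marked in Ebp.

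Other genes listed with the steps between squalene and cholesterol, not all of them enzymes of these steps, moved less uniformly. Of 8 measured genes (Lss, Lbr, Sc5d, Tm7sf2, Hsd17b7, Erg28, Cyb5a and Cyb5r3) 4 were higher in vehicle mice at 3 h than at 0 h, 5 at 6 h and 6 at 12 h. The shares of all probe sets called higher were 19.9%, 14.2% and 26%. The median log2 changes of the 8 genes were 0.69, 1.04 and 1.36 (1.05 at 12 h with Lbr at its bound). Across the 11 groups Cyb5a ranged over 0.47 log2 units and Lss over 5.04, so these medians mix unlike genes. Sc5d, which introduces a ring double bond, rose by 4.30 ± 0.32 at 12 h and Lss, the cyclase that makes lanosterol, by 4.22 ± 0.40, while Lbr, a nuclear membrane protein with sterol reductase activity, was at least 1.41-fold higher (adjusted p = 8.08e-10, 3.14e-08 and 8.41e-05). At 3 h Lss was lower in rapamycin mice (19.7 ± 2.89) than in vehicle mice (73.7 ± 24.7, SD, n = 3 each), which is at least 2.37-fold lower (adjusted p = 0.0390). It was the 1 gene of 8 called, against 0.289% of all probe sets called lower.

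The mevalonate and isoprenoid steps before squalene ran close to the genes after it. Of 6 measured genes 5 were higher at 3 h, 5 at 6 h and 6 at 12 h in vehicle mice, and 0 at 3 h in rapamycin mice. The shares of all probe sets called higher were 19.9%, 14.2%, 26% and 1.58% in the same order. At 12 h the largest fitted changes in vehicle mice were those of Idi1, the isoprenoid isomerase (7.11 ± 0.52), Fdps, which makes farnesyl diphosphate (6.78 ± 0.55), and Fdft1, squalene synthase (5.97 ± 0.63). Idi1 lay between 5 and 36 in vehicle mice at 0 h, so its fitted size depends in part on the floor. At 3 h 4 of 6 were lower in rapamycin than in vehicle mice, against 0.289% of all probe sets called lower. Among them were Idi1 at -2.73 ± 0.52, Fdps at -2.51 ± 0.55 and Mvd, the mevalonate decarboxylase, at least 1.72-fold lower (adjusted p = 0.0136, 0.0406 and 0.0133). The medians of this drug difference were -2.16 for these 6 genes, -1.60 for the 6 genes after squalene, -0.45 for the other sterol steps and -0.09 for all probe sets. With the genes that have only a bound set at it, the first 3 were -1.60, -1.13 and -0.45.

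Fatty acid synthesis genes, which the related factor SREBP-1c drives, rose at 3 h in 4 of 8 cases in vehicle mice and in 0 of 8 in rapamycin mice. Of all probe sets 19.9% and 1.58% were called higher in these comparisons. Mid1ip1 rose by 3.28 ± 0.56, Elovl6, an elongase, by 2.73 ± 0.52 and Fasn, the fatty acid synthase, by 2.63 ± 0.57 in vehicle mice (adjusted p = 2.39e-04, 6.04e-04 and 0.00215). Between rapamycin and vehicle mice at 3 h, 0 of 8 were called, with a median difference of -0.55. Of other lists, 0 of 2 sterol sensing genes, 0 of 4 of uptake and transport, 0 of 3 bile acid enzymes and 0 of 4 targets of LXR, the receptor for excess sterols, differed between the drugs at 3 h. Only 0.289% of all probe sets were called lower and 0.0152% higher in this comparison. Counts of 0 in lists this short therefore do not set them apart from other genes. In vehicle mice at 12 h, 1 of 2, 0 of 4, 0 of 3 and 1 of 4 of the genes in these lists were higher than at 0 h, and 0 of 2, 1 of 4, 1 of 3 and 1 of 4 lower. Of all probe sets 26% were called higher and 9.3% lower. Srebf1, which encodes SREBP-1, was higher by 3.00 ± 0.66, Nr1h3, which encodes LXR alpha, by 1.14 ± 0.13, Npc1, which exports cholesterol from lysosomes, was lower by -1.33 ± 0.16, Abcg1, a sterol exporter, by -1.16 ± 0.26, and Cyp8b1, a bile acid hydroxylase, by -1.90 ± 0.23.

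**Figure D5:**
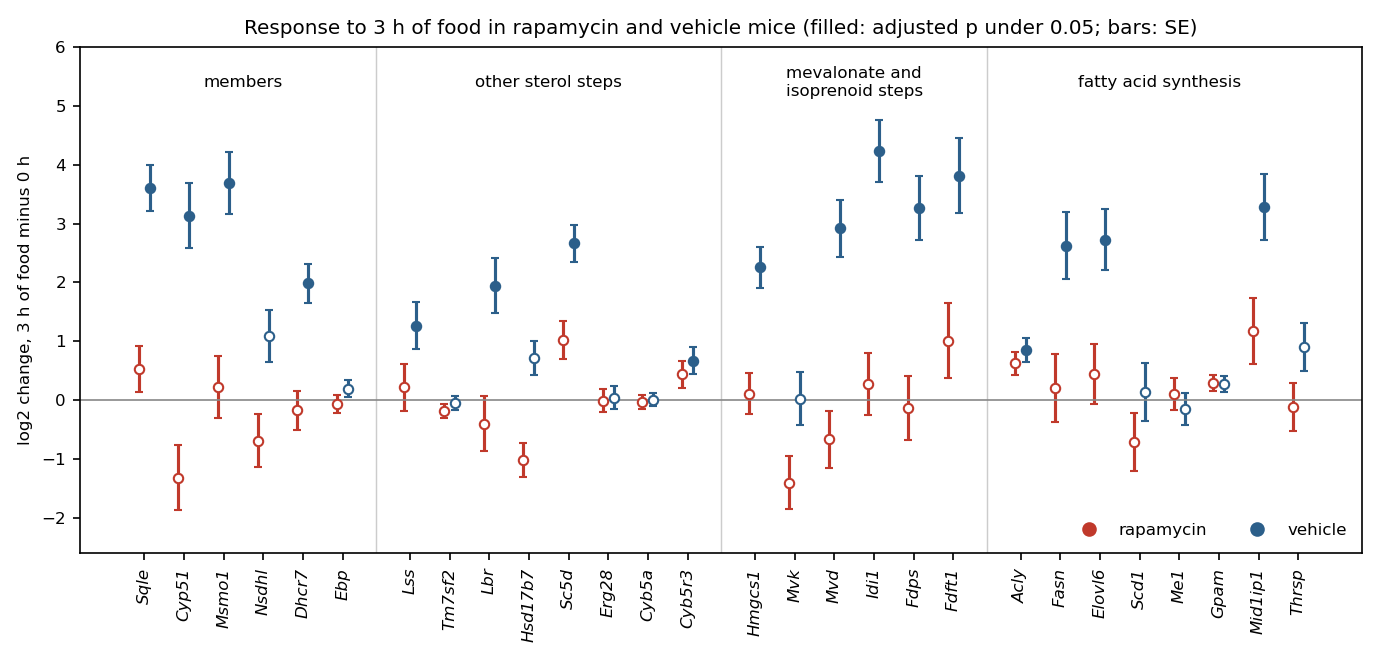
Log2 change from 0 h to 3 h with food in rapamycin mice (red) and vehicle mice (blue) for the 6 genes, other sterol steps, mevalonate and isoprenoid steps and fatty acid synthesis; bars are the SE of the fit and filled points passed an adjusted p of 0.05. No red point is filled, and 4 of the 6 blue points at the left are.

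Across the 11 group means of log2 intensity, Sqle, Cyp51, Msmo1, Nsdhl and Dhcr7 correlated with each other at Pearson's r of 0.919 to 0.985, and Ebp with them at 0.781 to 0.877. These points share arrays and sets, and the values are given as a description. Of 5867 other named probe sets the 10 most like the mean profile of the 6 genes were 2 of Fdps (0.996 and 0.993) and those of Idi1 (0.990), Hmgcs1 (0.984), Hao2 (0.980), Slc31a1 (0.980), Slc25a1 (0.979), Yju2 (0.977, by a probe set that can match several transcripts), Mvd (0.975) and Tkt (0.974). Of these 10, 5 belong to the mevalonate steps. Hao2 is a hydroxy acid oxidase, Slc31a1 a copper transporter, Slc25a1 the mitochondrial citrate carrier and Tkt transketolase. Ranked by Spearman's rho instead, 4 of the 10 were shared.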

How the data were processed

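Liver RNA of 33 mice was measured on 1-colour MG-U74Av2 arrays. The deposited intensities are linear probe set values that the authors scaled by a factor per array, per the file headers; the array software and its settings are not given in the sources used here. The detection calls (present, marginal or absent) in the authors' deposited table served as a filter. Its 66 other per-array columns name only an experiment and were not used. The labels give a 22 h fast before the injection, and that table's header a 24 h fast.

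Probe sets present on at least 3 of 33 arrays were tested (6568 of 12488). Values were raised to 6.31, 0.1 of the mean trimmed mean of 63.1, log2-transformed and fitted with limma 3.58.1 in R 4.3.3 as 11 group means, with Benjamini-Hochberg adjustment over all tested probe sets. The code was tested on simulated data. Intensities carry no read depth, so the number of arrays, 2 to 5 a group, limits the precision. Between 2989 and 5714 probe sets were present per array. Where the labels do not name separate cages or batches, p-values measure the spread between these mice.

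Comparisons that use the same 0 h or vehicle arrays share them and are not independent. Alternatives changed the floor, filter, scaling, array set, probe set, test, arrays fitted and replicate block. Named genes were all members, at most 3 passing genes per list and comparison with the largest changes, and the 10 most alike profiles. Members and lists were chosen with earlier results of these data known.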

Additional observations from a re-analysis of the deposited data

Results flagged for a closer look

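The response to 3 h of food differed between rapamycin and vehicle mice for 4 of the 6 genes, by limma's test of the difference itself. The log2 response in rapamycin mice minus that in vehicle mice was -3.08 for Sqle, -4.45 for Cyp51, -3.46 for Msmo1 and -2.16 for Dhcr7 (adjusted p = 0.00421, 0.00306, 0.00901 and 0.0107). Of all probe sets 4.48% were called lower in the same test. These sizes rest in part on the 0 h groups, whose arrays differ in set. With the array set as a term 0 of 6 genes passed, and with a floor of 30 2 of 6 did. Within the 5 uninjected fasted mice no array was flagged for any of the 8 probe sets. Some single values still lay away from the rest, such as 27.4 for Nsdhl by 98631_g_at beside 48 to 65 on the other arrays.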

How the results depend on the processing

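Of 2640 values of single genes under the alternatives, 2565 kept their side of the threshold, 54 no longer passed, 21 newly passed and 0 called values reversed. Values not called either way could change direction and still count among the 2565. The counts below are genes of 6. Fitted on only the groups compared, 2 genes passed for 3 h against 0 h in vehicle mice, where 7.89% of all probe sets were called higher and 0.929% lower. For 12 h refed against nonfasted vehicle mice 2 passed (0.442% of all probe sets higher, 0.259% lower). For vehicle at 0 h against uninjected 0 passed (0.0457% higher, 0.228% lower), and 0 for rapamycin against vehicle at 3 h (0.0152% higher, 0% lower). The test of drug by refeeding over all times gave 1 (0.731% of all probe sets). With the array set as a term, 0 passed for the difference of 3 h responses (0.0152% of all probe sets higher, 0.0152% lower) and 0 for the test over all times (0.0914%). With a floor of 30, 3 passed for 12 h refed against nonfasted (5.74% of all probe sets higher, 3.43% lower). That floor gave 0 for vehicle at 0 h against uninjected (2.69% higher, 2.59% lower) and 2 for the difference of 3 h responses (0.107% higher, 1.45% lower). With that floor and the set term together the counts were 3, 0 and 0, and 1 for the test over all times. With the floor doubled 1 passed for 12 h refed against nonfasted, and with the floor halved 1 for rapamycin against vehicle at 0 h. No share of all probe sets is given for a doubled or halved floor or for the floor of 30 with the set term. The same holds for the replicate block and the left-out arrays below. Within a single array set, an alternative chosen after seeing the data, 1 passed for 12 h refed against nonfasted (6.04% of all probe sets higher, 2.62% lower). For vehicle at 0 h against uninjected 0 passed in such a fit (0.487% higher, 0.563% lower). Causes were not tested, except that smaller fits hold fewer arrays.

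Leaving out 1 array at a time gave 0 to 2 for vehicle at 0 h against uninjected, 0 to 2 for rapamycin against vehicle at 0 h, 2 to 4 at 3 h, 1 to 4 for the mean over refeeding, 4 to 5 for the difference of 3 h responses and 0 to 4 for the test over all times. Deviations of arrays with the same replicate number correlated at -0.427 to 0.213 over 146 pairs (median 0.0002), so the numbers do not pair the mice. With the replicate block, 0 passed for vehicle at 0 h against uninjected and 2 for the test over all times, and the other counts equalled those without it (3 for rapamycin against vehicle at 3 h). Signal near background limits Sqle, Cyp51, Msmo1, Dhcr7 and Nsdhl in fasted liver and in rapamycin mice at 3 h. In vehicle mice at 3 h it also limits Cyp51, Dhcr7 and Nsdhl.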
